A study of Mus musculus with 20 samples.

Results

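The enzymes that make serine and pass its carbon into the folate pool were followed in mouse alveolar macrophages after cigarette smoke. The set is a named list of 8 genes, Phgdh, Psat1, Psph, Shmt1, Shmt2, Mthfd1, Mthfd1l and Mthfd2, and all 8 were among the 13225 genes of the expression table. The macrophages, which patrol the air spaces of the lung, had been sorted by flow cytometry for CD45, Siglec-F and CD11c on their surface. There were 4 groups of 5 mice with 1 library per mouse: miR-155 KO mice in smoke, miR-155 KO mice in air, WT mice in smoke and WT mice in air. The KO mice were of the strain B6.Cg-Mir155tm1.1Rsky/J, which lacks the microRNA miR-155, and the WT mice were C57BL/6. Exposure to smoke or air lasted 4 weeks. The labels give neither age nor sex and name no cell type to which the loss of miR-155 is limited, so the cells around the macrophages in KO mice may lack it too. The study asks how smoke changes these cells and whether miR-155 bears on that change.

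Serine is built from the glycolytic intermediate 3-phosphoglycerate in a chain of reactions. Phgdh oxidises it, Psat1 moves an amino group onto the product, and Psph removes the phosphate to leave serine. Shmt1 in the cytosol and Shmt2 in mitochondria then split serine into glycine and a carbon unit carried by tetrahydrofolate. Mthfd2 oxidises that unit in mitochondria, Mthfd1l releases it as formate, and Mthfd1 takes formate up in the cytosol, where it feeds the synthesis of purines and thymidylate. In macrophages this route is known to supply glycine for glutathione and methyl groups for chromatin during activation, and several of its genes are known targets of the stress-responsive transcription factor ATF4.

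Levels are log2 CPM, where CPM are a gene's reads scaled to a fixed library total. Libraries held 6885680 to 11952088 reads, and each enzyme was read in all 20 of them, with 13 reads as the lowest count, so sampling of reads limits the scarcest enzyme, Mthfd1l, most. In KO air the libraries of mice IIIb2, IIIb3 and IIIb4 stood apart: they lacked any read for 1645, 1524 and 1451 genes, while the remaining 17 libraries lacked 259 to 1224. They were also among the shallowest, with 7422925, 6885680 and 8074431 reads. The KO smoke library IVa5, with 7336133 reads, lacked 1224 genes. Smoke differences of the enzymes in KO mice are therefore given with and without IIIb2, IIIb3 and IIIb4. Without them KO air was left with mice IIIa5 and IIIb1 only. The 11 alveolar macrophage markers listed were all read, and their summed level was 26200 to 30390 CPM in KO smoke, 25010 to 30280 CPM in KO air, 23960 to 29610 CPM in WT smoke and 26510 to 28430 CPM in WT air. Chil3 held most of that sum, and single markers differed with smoke. Of the genes of the sort markers, Siglecf had log2 differences of -1.15 in KO mice and -1.25 in WT mice. Ptprc, the CD45 gene, was called lower too, at -0.30 in KO mice and -0.69 in WT mice. Itgax, the CD11c gene, was called in neither, at 0.06 and -0.03. Ear1 was at -2.08 and -2.05, Ear2 at -1.35 and -1.33, Car4 at 1.09 and 1.52, and Marco at 0.54 and 0.79. In all, smoke was called higher for 3 and lower for 4 of the 11 in KO mice, where 15.5% of all genes were called. In WT mice it was called higher for 2 and lower for 5, where 22.4% of all genes were called. The part of these 11 markers in the results on the 8 enzymes was not tested. These are bulk samples, in which fewer cells of a type and less RNA per cell cannot be told apart. Differences were tested with limma over all genes, a gene was called at a Benjamini-Hochberg adjusted p under 0.05, and the errors of differences are limma standard errors (SE). The labels do not say whether mice of a group were bred or exposed together.

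Sequence from RefSeq (GRCm38.p6) around the start sites is shown for the 3 enzymes of serine synthesis and for Mthfd2, since these promoters carry repeated CCAAT boxes, short elements common near start sites. Each run spans 250 bases before to 50 after the start, is written 5′ to 3′ on the gene's strand, and has each CCAAT in capitals, as ATTGG where it lies on the other strand.
Psat1, chr19:15925010-15925309, minus strand: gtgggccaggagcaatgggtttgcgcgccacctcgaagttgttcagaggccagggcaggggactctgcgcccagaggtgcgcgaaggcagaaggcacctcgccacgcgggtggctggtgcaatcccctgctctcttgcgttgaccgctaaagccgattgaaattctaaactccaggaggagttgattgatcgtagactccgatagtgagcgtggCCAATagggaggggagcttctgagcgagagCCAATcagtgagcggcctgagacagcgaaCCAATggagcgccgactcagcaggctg
Mthfd2, chr6:83317555-83317854, minus strand: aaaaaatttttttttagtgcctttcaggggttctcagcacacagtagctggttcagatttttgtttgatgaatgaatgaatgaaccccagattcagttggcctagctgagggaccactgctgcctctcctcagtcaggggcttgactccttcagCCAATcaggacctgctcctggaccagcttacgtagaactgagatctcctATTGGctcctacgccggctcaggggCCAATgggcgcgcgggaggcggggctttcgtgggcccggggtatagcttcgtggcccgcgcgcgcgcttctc
Phgdh, chr3:98339920-98340219, minus strand: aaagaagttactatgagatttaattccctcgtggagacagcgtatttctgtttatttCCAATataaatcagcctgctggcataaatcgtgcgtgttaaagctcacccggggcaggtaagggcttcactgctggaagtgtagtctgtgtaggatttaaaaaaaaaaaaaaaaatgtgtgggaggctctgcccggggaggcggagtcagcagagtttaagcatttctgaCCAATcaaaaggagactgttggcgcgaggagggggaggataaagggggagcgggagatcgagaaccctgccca
Psph, chr5:129787204-129787503, minus strand: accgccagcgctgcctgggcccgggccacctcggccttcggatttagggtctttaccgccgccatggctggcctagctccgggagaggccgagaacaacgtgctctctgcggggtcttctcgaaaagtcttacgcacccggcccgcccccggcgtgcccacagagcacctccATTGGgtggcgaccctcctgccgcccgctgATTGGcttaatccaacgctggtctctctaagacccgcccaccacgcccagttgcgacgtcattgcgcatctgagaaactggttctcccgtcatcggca

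All 8 genes had at least 1 such promoter entry, and Psat1 had a second. Searched on both strands, CCAAT occurred 3 times in the Psat1 window shown and 3 times in that of Mthfd2, 2 times in those of Phgdh and Psph, 1 time in those of Shmt1 and Mthfd1, and not in those of Shmt2 or Mthfd1l or in the second Psat1 window. Of the 32851 promoters of the same length in the table, 37.4% held at least 1 CCAAT, 11.7% at least 2 and 3.37% at least 3. This motif was chosen after the sequences had been read. TGATGCAA, the composite element for ATF4 and C/EBP proteins, was in none of the windows of the 8 genes and in 0.895% of all promoters. The E-box CACGTG was in none of them either, against 7.15% of all promoters. The antioxidant response element core TGACNNNGC was found in the windows of Phgdh and Psph and in 12.4% of all promoters, and it overlapped no CCAAT there. These matches are letters in a window and were not measured as bound sites.

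Per length of transcript, Phgdh was the most abundant of the enzymes in all 4 groups. It stood at 82.0 ± 6.60 CPM per kb in KO smoke, 65.7 ± 9.79 in KO air, 78.0 ± 10.5 in WT smoke and 71.1 ± 7.23 in WT air (SD, n = 5 mice each), and its libraries did not overlap those of the next enzyme in any group. Shmt2, Mthfd2 and Mthfd1 followed between 14.1 and 26.4 CPM per kb, each overlapping its neighbour in the order in every group where they were neighbours. Shmt1 and Psph stood between 2.58 and 6.35 CPM per kb. Mthfd1l, the formate-releasing synthetase of mitochondria, was lowest in all groups at 0.932 to 1.70 CPM per kb. The place of Psat1 differed between groups: it averaged 16.8 ± 1.72 CPM per kb in KO smoke, 11.6 ± 1.71 in KO air, 20.8 ± 1.81 in WT smoke and 8.39 ± 1.03 in WT air. In WT air its libraries lay wholly below those of Mthfd1, and in the other 3 groups they overlapped them.

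**Figure D1:**
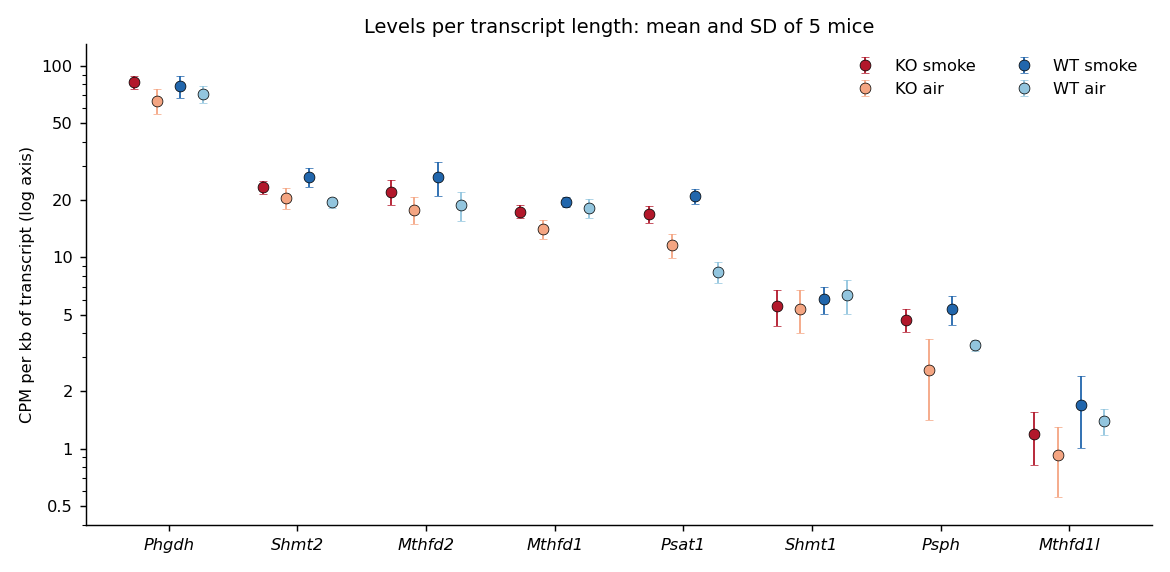
Mean level of each enzyme in CPM per kb of its longest annotated transcript, on a log axis, with SD bars over 5 mice per group. Phgdh stands above the others at 65.7 to 82.0 CPM per kb, and Psat1 spans the widest range relative to its level, 8.39 to 20.8 CPM per kb.

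In miR-155 KO mice, smoke raised 4 of the 8 enzymes, Phgdh, Psat1, Psph and Mthfd1, and none was called lower. Over all genes measured, 15.5% were called in this comparison, 7.05% as higher. The median log2 difference was 0.32 over the 8 enzymes and -0.01 over all genes. Only Psat1 among the enzymes had smoke libraries wholly above air libraries, as 4.54% of all genes did. Without the KO air mice IIIb2, IIIb3 and IIIb4, Psat1 was the only enzyme called in KO mice. In WT mice, smoke raised 3 enzymes, Psat1, Shmt2 and Mthfd2, where 22.4% of all genes were called, 9.66% as higher. The median log2 difference was again 0.32, against -0.02 over all genes. The smoke libraries lay wholly above the air libraries for 4 enzymes, these 3 and Psph, as they did for 8.15% of all genes. The enzymes called in WT mice numbered 4 with only the WT groups fitted and with libraries weighted by quality. They also numbered 4 with voom weights and with log2 of CPM plus 5. Averaged over the genotypes, 6 of the 8 enzymes were called, all higher, where 30.8% of all genes were called and 13.6% as higher; Shmt1 and Mthfd1l were not. Without those 3 libraries Psat1, Psph, Shmt2 and Mthfd2 were called in the average.

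**Figure D2:**
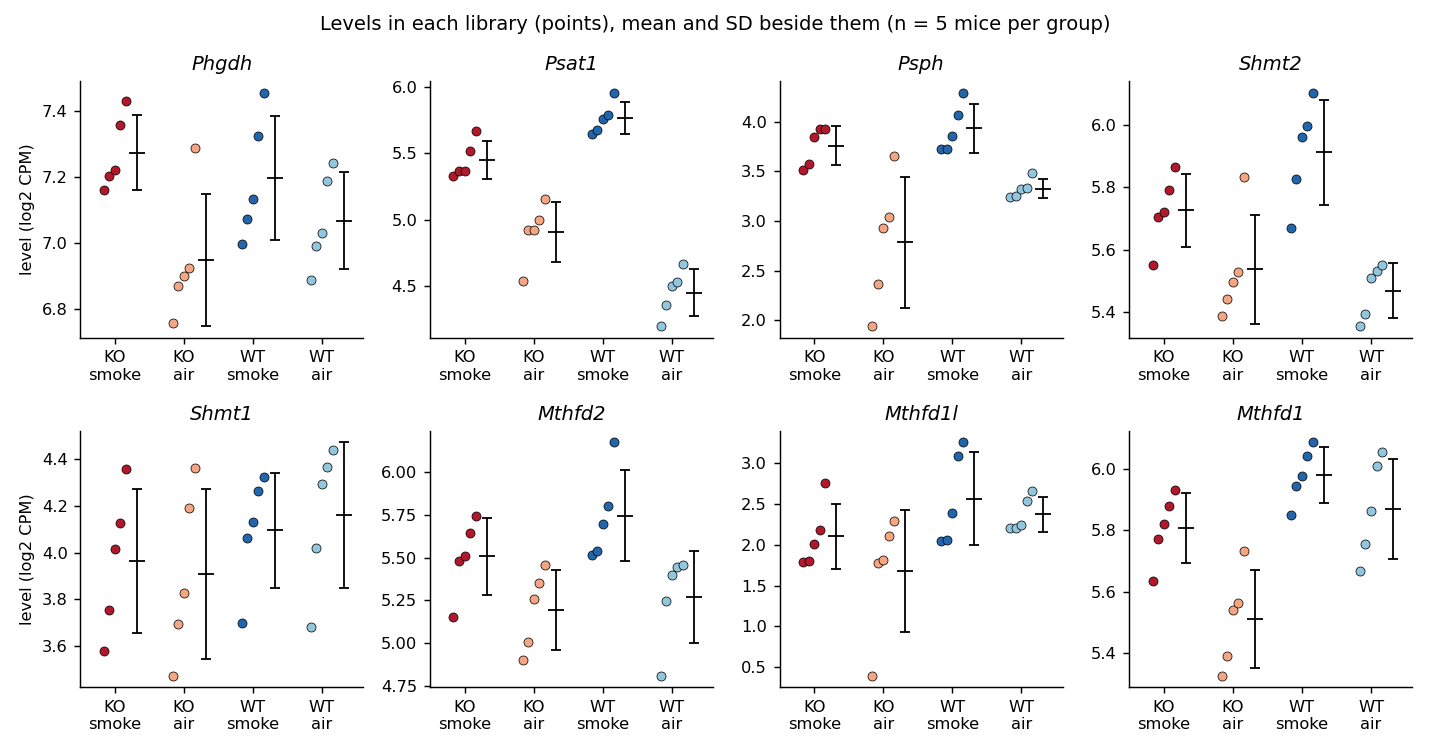
Level of each enzyme (log2 CPM) in every library, with KO smoke, KO air, WT smoke and WT air from left to right and the mean and SD of 5 mice beside the points. Smoke libraries lie wholly above air libraries in both genotypes for Psat1, and Shmt1 overlaps in all groups.

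Psat1, the phosphoserine aminotransferase (Ensembl ENSMUSG00000024640.9, chr19:15904678-15947337 on the minus strand of GRCm38), showed the largest response to smoke of the 8 in WT mice. It had 40.2, 41.3, 41.2, 50.9 and 45.7 CPM in KO smoke, against 30.4, 23.2, 30.3, 32.0 and 35.5 CPM in KO air. It had 62.1, 50.1, 51.1, 55.3 and 54.0 CPM in WT smoke, against 20.4, 22.6, 18.3, 23.0 and 25.4 CPM in WT air. Every smoke library was above every air library of its genotype. In KO mice the log2 difference was 0.54 ± 0.12 (SE, n = 5 per group, adjusted p 0.00221), or 1.46-fold, and it was 0.72 ± 0.15 without IIIb2, IIIb3 and IIIb4 (0.00219). In WT mice it was 1.31 ± 0.12 (adjusted p 3.69e-09), or 2.49-fold. Both calls held under all 34 alternative settings, with log2 differences of 0.45 to 0.72 in KO mice and 1.14 to 1.37 in WT mice.

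The smoke response of Psat1 was smaller in KO than in WT mice by 0.77 ± 0.17 on the log2 scale (95% interval of the KO minus WT difference -1.13 to -0.42). Its unadjusted p of 0.000116 ranked 13 of 13225 genes, but the adjusted p of 0.117 missed the threshold. In this comparison limma called 0 of all genes (0%) and 0 of the 8 enzymes, 1302 genes had an unadjusted p under 0.05, and fits with voom weights also called 0. The Psat1 difference was called without the WT smoke mouse IIa5 (adjusted p 0.0449) or without the KO air mouse IIIb1 (0.0314), and it was -0.60 without IIIb2, IIIb3 and IIIb4 (0.473). Among the remaining enzymes the KO minus WT differences in response ran from -0.25 for Shmt2 to 0.36 for Psph, with adjusted p of 0.587 to 0.920. Without IIIb2, IIIb3 and IIIb4 they ran from -0.40 for Shmt2 to 0.66 for Mthfd1l, with adjusted p of 0.540 to 0.945.

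Between genotypes, the Psat1 level in KO air exceeded that in WT air by 0.46 ± 0.12 on the log2 scale (adjusted p 0.0917), and the level in KO smoke differed from that in WT smoke by -0.32 ± 0.12 (adjusted p 0.217). Neither passed the threshold, and the libraries overlapped in both exposures. The air difference was called without the KO air mouse IIIb1 (adjusted p 0.0260) and became 0.28 without IIIb2, IIIb3 and IIIb4 (0.755). The smoke difference was called, at -0.37, when libraries were weighted by quality (adjusted p 0.0212). Of the 8 enzymes limma called 0 in the KO against WT comparison in air, where 0.416% of all genes were called and 3 of the 8 had an unadjusted p under 0.05. These 3 were Psat1, Mthfd1 and Psph. Psph was at -0.54 ± 0.25 (adjusted p 0.401), or -0.03 ± 0.24 without IIIb2, IIIb3 and IIIb4 (0.996). Of the 8 enzymes 0 were called in smoke, where 1.58% were called, 118 genes higher and 91 lower (197 and 69 with median centring), and 1 of the 8 had an unadjusted p under 0.05.

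**Figure D3:**
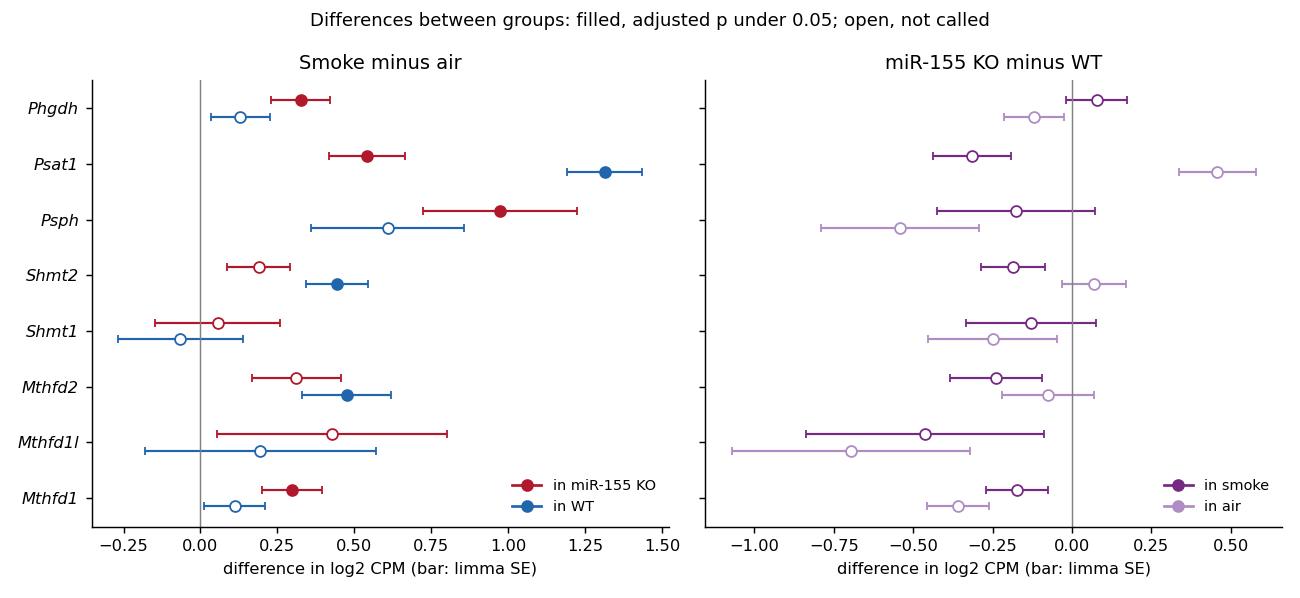
Differences in log2 CPM for each enzyme with limma SE bars, smoke minus air in miR-155 KO and in WT mice (left) and KO minus WT in smoke and in air (right). Filled points were called at an adjusted p under 0.05: 4 in KO mice and 3 in WT mice on the left, and 0 on the right.

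Phgdh, the dehydrogenase that opens the pathway (ENSMUSG00000053398.11, chr3:98313170-98339990, minus strand), rose with smoke in KO mice and was not called in WT mice. It had 147, 149, 164, 173 and 143 CPM in KO smoke, against 156, 117, 121, 108 and 119 CPM in KO air. In KO air 4 of the 5 libraries lay below all KO smoke libraries, and IIIa5 lay among them. The log2 difference was 0.33 ± 0.10 (adjusted p 0.0179). It was not called without the KO air mouse IIIb3 (adjusted p 0.0551) or the KO smoke mouse IVb2 (0.0571), without a mean trend in the variance (0.0551) or with libraries weighted by quality (0.135), and was 0.19 without IIIb2, IIIb3 and IIIb4 (0.381). In WT mice Phgdh had 140, 135, 160, 176 and 128 CPM in smoke, against 131, 127, 118, 146 and 151 CPM in air, and these libraries overlapped. Their log2 difference of 0.13 ± 0.10 (95% interval -0.07 to 0.32) was not called, with an adjusted p of 0.375. Phgdh has 19 transcripts of at least 90% identity over at least 200 bases elsewhere in the annotation, most of them processed pseudogenes, so some of its reads may be shared. Of these, 1 was in the table, Gm7901, with a mean log2 CPM of -0.67 against 6.95 to 7.27 for Phgdh in the 4 groups.

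Psph, the phosphatase that completes serine (ENSMUSG00000029446.14, chr5:129765558-129787449, minus strand), had 11.4, 14.3, 15.1, 15.1 and 11.9 CPM in KO smoke, against 12.6, 7.58, 3.77, 8.13 and 5.08 CPM in KO air. The lowest KO air values were those of IIIb2 and IIIb4, and IIIa5 was within the smoke range. The log2 difference of 0.97 ± 0.25 was called (adjusted p 0.00687), was not when only the KO groups were fitted (0.0534), and became 0.47 ± 0.24 without IIIb2, IIIb3 and IIIb4 (0.280). In WT mice Psph had 14.5, 13.1, 13.2, 16.7 and 19.6 CPM in smoke, against 9.94, 9.46, 11.1, 10.02 and 9.43 CPM in air. All 5 WT smoke libraries were above all 5 WT air libraries, while the log2 difference of 0.61 ± 0.25 missed the threshold (adjusted p 0.0824). In the fit without IIIb2, IIIb3 and IIIb4 its SE was 0.19 and it was called (adjusted p 0.0154), and likewise without IIIb2 alone (0.0400). Psph overlaps the chaperonin gene Cct6a on the opposite strand, and whether the reads were counted by strand is not given in the sources used here. Cct6a had a mean log2 CPM of 7.16 and was called in neither smoke comparison, with log2 differences of -0.17 in KO mice and 0.06 in WT mice.

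Within each library, Psat1 and Psph could be set against Phgdh, which removes the scaling of libraries. Psat1 minus Phgdh averaged -1.82 ± 0.13 log2 in KO smoke, -2.04 ± 0.30 in KO air, -1.43 ± 0.23 in WT smoke and -2.62 ± 0.08 in WT air (SD, n = 5 each). The WT smoke libraries, from -1.67 to -1.17, lay wholly above the WT air libraries, from -2.69 to -2.49. The KO air libraries, from -2.36 to -1.75, lay above all WT air libraries. They overlapped KO smoke, from -1.992 to -1.643, only through IIIb3 at -1.76 and IIIb4 at -1.75. The KO air mice IIIa5 at -2.36, IIIb1 at -2.33 and IIIb2 at -1.999 lay below every KO smoke library. Psph minus Phgdh averaged -3.52 ± 0.12 in KO smoke, -4.16 ± 0.58 in KO air, -3.26 ± 0.34 in WT smoke and -3.74 ± 0.22 in WT air. Its groups overlapped in both genotypes. In KO air IIIa5 was at -3.63 and IIIb1 at -3.94, against -4.98, -3.72 and -4.54 for IIIb2, IIIb3 and IIIb4.

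**Figure D4:**
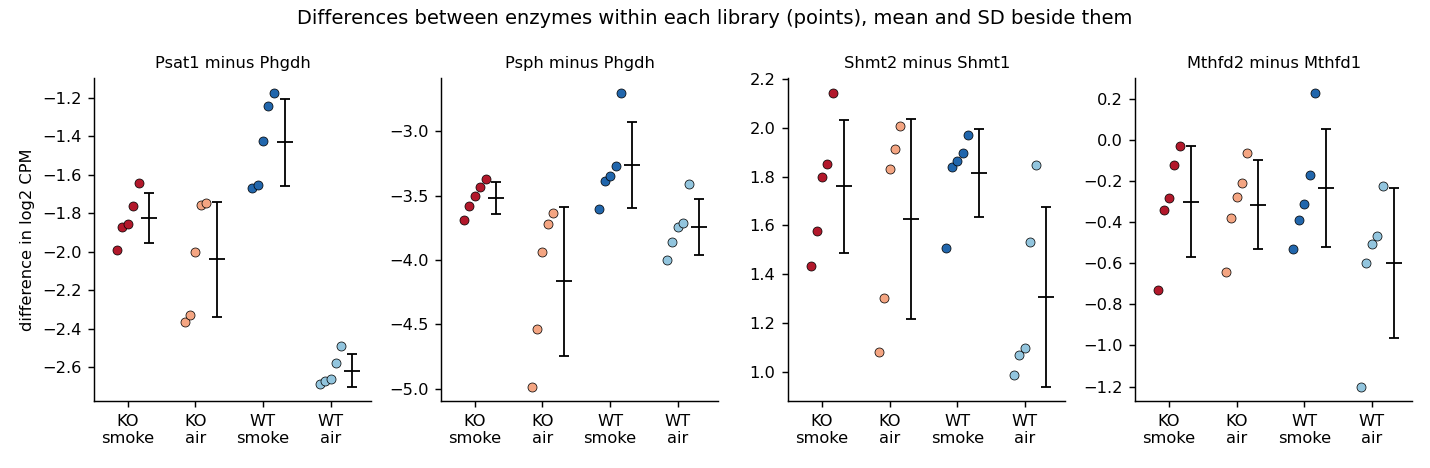
Differences in log2 CPM between pairs of enzymes within each library, with KO smoke, KO air, WT smoke and WT air from left to right and the mean and SD of 5 mice beside the points. Psat1 minus Phgdh is lowest in WT air, at -2.69 to -2.49.

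Of the hydroxymethyltransferases, the mitochondrial Shmt2 rose with smoke in WT mice and the cytosolic Shmt1 did not pass in either genotype. Shmt2 (ENSMUSG00000025403.5, chr10:127517123-127522444, minus strand) had 46.8, 52.0, 58.2, 55.3 and 52.6 CPM in KO smoke, against 57.0, 46.0, 41.8, 43.4 and 45.1 CPM in KO air. These libraries overlapped, since the KO air mouse IIIa5 was above 4 of the 5 smoke libraries, and the log2 difference was 0.19 ± 0.10 (adjusted p 0.227), or 0.05 ± 0.13 without IIIb2, IIIb3 and IIIb4 (0.878). It had 56.7, 50.8, 62.2, 63.8 and 68.6 CPM in WT smoke, against 46.1, 46.8, 42.0, 45.5 and 40.9 CPM in WT air. Every WT smoke library was above every WT air library, the log2 difference was 0.44 ± 0.10 (adjusted p 0.00171), and the call held under all 34 alternative settings.

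Shmt1 (ENSMUSG00000020534.14, chr11:60788104-60811718, minus strand) had 11.9 to 20.5 CPM in KO smoke, 11.05 to 20.5 CPM in KO air, 12.9 to 19.9 CPM in WT smoke and 12.8 to 21.6 CPM in WT air. Its groups overlapped throughout. The log2 difference with smoke was 0.06 ± 0.20 in KO mice (95% interval -0.36 to 0.47) and -0.07 ± 0.20 in WT mice (-0.48 to 0.35), with adjusted p of 0.901 in KO mice and 0.873 in WT mice, and in KO mice it was 0.20 ± 0.24 without IIIb2, IIIb3 and IIIb4 (0.685). Shmt1 overlaps Smcr8, a gene on the opposite strand with a mean log2 CPM of 7.02. Shmt2 minus Shmt1 within a library averaged 1.76 ± 0.27 log2 in KO smoke, 1.63 ± 0.41 in KO air, 1.82 ± 0.18 in WT smoke and 1.31 ± 0.37 in WT air, and the groups overlapped. In KO air IIIa5 was at 2.01 and IIIb1 at 1.83, against 1.91, 1.08 and 1.31 for IIIb2, IIIb3 and IIIb4.

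Mthfd2, the mitochondrial dehydrogenase and cyclohydrolase (ENSMUSG00000005667.8, chr6:83305691-83325908, minus strand), had 45.6, 44.7, 50.03, 35.5 and 53.6 CPM in KO smoke, against 43.8, 38.3, 29.8, 32.1 and 40.9 CPM in KO air. The KO libraries overlapped, and their log2 difference was 0.31 ± 0.14 (adjusted p 0.153), or 0.15 ± 0.18 without IIIb2, IIIb3 and IIIb4 (0.695). It had 51.9, 72.2, 46.5, 55.8 and 45.7 CPM in WT smoke, against 37.9, 43.8, 28.0, 43.5 and 42.1 CPM in WT air. The WT smoke libraries were all above the WT air libraries, with IIa5 highest and the air mouse Ib1 lowest. The log2 difference was 0.48 ± 0.14 (adjusted p 0.0164), and it was not called without Ib1 (0.0728) or without IIa5 (0.0660).

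Mthfd1, the cytosolic enzyme that joins formate to folate (ENSMUSG00000021048.7, chr12:76255298-76319803, plus strand), had 49.6, 56.5, 60.9, 58.9 and 54.6 CPM in KO smoke, against 53.1, 40.0, 46.5, 41.8 and 47.2 CPM in KO air. The groups overlapped through the KO air mouse IIIa5. The log2 difference was 0.30 ± 0.10 (adjusted p 0.0362), and this call was lost in 6 of the 20 fits that left out a library, with adjusted p up to 0.0980. It was lost too when only the KO groups were fitted (0.0892), with the letter of the mouse code as a covariate (0.0854), with libraries weighted by quality (0.11), with voom weights (0.0641) and without IIIb2, IIIb3 and IIIb4 (0.28, adjusted p 0.198). In WT mice Mthfd1 had 57.6 to 68.0 CPM in smoke and 50.7 to 66.4 CPM in air, with a log2 difference of 0.11 ± 0.10 (adjusted p 0.473). Its level in KO air was below that in WT air by a log2 difference of -0.36 ± 0.10 that missed the threshold (adjusted p 0.0974), that was called without the KO air mouse IIIa5 (0.0328), and that was -0.34 without IIIb2, IIIb3 and IIIb4 (0.545).

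Mthfd1l (ENSMUSG00000040675.17, chr10:3973118-4167081, plus strand) was scarce, with 3.40 to 6.70 CPM in KO smoke, 1.26 to 4.85 CPM in KO air, 4.07 to 9.52 CPM in WT smoke and 4.55 to 6.29 CPM in WT air. Its log2 difference with smoke was 0.43 ± 0.38 in KO mice (95% interval -0.341 to 1.196, adjusted p 0.497) and 0.19 ± 0.38 in WT mice (-0.57 to 0.96, adjusted p 0.779). Without IIIb2, IIIb3 and IIIb4 the KO difference was 0.86 ± 0.46 (adjusted p 0.290). All groups overlapped, at 13 to 89 reads per library.

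Variation between mice of the same group was shared loosely among the 8. Over deviations from the group means in the 20 libraries, 23 of the 28 pairs of enzymes had a positive Pearson r. Only Psph with Shmt2 exceeded 0.5, with r = 0.69, and the lowest was Mthfd1l with Mthfd2 at -0.49. These values share library depth and scaling and carry no test. For each enzyme the 3 highest r were then taken from 8906 genes with a mean log2 CPM of 3 or more (8907 for Mthfd1l). How high the top r among so many genes would be by chance was not tested. The deviations most like those of Psat1 were those of Wrap73 (r = 0.81), Psma1 (0.81) and the thiamine transporter gene Slc19a2 (0.75). For Psph they were those of Kmt5a (0.82), Hspe1 (0.81) and Umps (0.80), for Phgdh those of Tmem258 (0.82), Rnf149 (0.79) and Dctn4 (0.75), and for Shmt2 those of Akr7a5 (0.75), Spef1 (0.74) and Josd2 (0.72). The closest were Nras (0.76), Sephs2 (0.76) and Guk1 (0.74) for Shmt1, Chsy1 (0.77), Cramp1l (0.77) and Arsa (0.76) for Mthfd1, Actr8 (0.78), Rpa2 (0.76) and Btg1 (0.75) for Mthfd1l, and Lilra5 (0.77), Ddx51 (0.74) and Mrps22 (0.74) for Mthfd2.

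Around the 8 enzymes, 8 lists of neighbouring functions held 94 genes, of which 81 were measured. With smoke, 17 of the 81 were called higher and 6 lower in KO mice, and 23 higher and 4 lower in WT mice, with median log2 differences of 0.08 in KO mice and 0.14 in WT mice. Over all genes, 15.5% were called in KO mice, 7.05% as higher, and 22.4% in WT mice, 9.66% as higher. The glycolytic genes on either side of 3-phosphoglycerate, from which serine is drawn, rose most evenly. In KO mice 4 of 5 were called higher, with Pgam1 at 0.79, Pgk1 at 0.36, Eno1 at 0.35 and Gapdh at 0.24, and only Pkm was not called. The Pgk1 call was lost without IIIb2 or IVb4. In WT mice 5 of 5 were called higher, with Pgam1 at 1.11, Pgk1 at 0.68, Eno1 at 0.66 and Gapdh at 0.54. Without IIIb2, IIIb3 and IIIb4 the KO count was 2 of 5, as Eno1 (adjusted p 0.0996) and Pgk1 (0.149) were not called. In KO smoke, against WT smoke, 3 of the 5 were called lower: Pgk1 at -0.41, Eno1 at -0.34 and Pkm at -0.28. The Pgk1 call was lost in 13 of the 20 fits that left out a library and with either other scaling, while Eno1 and Pkm lost theirs without the WT smoke mouse IIb1, and Pkm also without IIa1.

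Cell cycle genes were called higher in 8 of 15 cases in KO mice and in 9 of 15 in WT mice, and 0 were called lower in either. Rrm2, a subunit of ribonucleotide reductase, had a log2 difference of 0.86 ± 0.12 in KO mice (adjusted p 1.02e-05) and 1.29 ± 0.12 in WT mice (7.36e-09). Mki67, a marker of cycling cells, stood at 0.71 and 0.80, and Birc5, a survivin gene of mitosis, at 1.01 and 1.14, in KO and in WT mice. Cdk1, the mitotic kinase, was at 0.86 in KO mice and 0.74 in WT mice, and the cyclin gene Ccna2 at 0.69 and 1.19. Rrm1, the other reductase subunit, was at 0.55 in KO mice, 0.75 in WT mice and 0.65 in the average over genotypes. Cdk1, Ccna2 and Rrm1 were called higher in both genotypes. The helicase genes Mcm2 to Mcm7 were not called in either genotype, with log2 differences of -0.13 to 0.24 in KO mice and -0.06 to 0.26 in WT mice, while Mcm2 was called in the average over genotypes at 0.22 (adjusted p 0.0284). With quantile normalization Mcm2, Mcm3 and Mcm7 were called in WT mice, which made 12 of 15. Without IIIb2, IIIb3 and IIIb4 Mcm2 was called in both genotypes, and Pcna in KO mice. Mcm2 to Mcm7 and Pcna are named beyond the rule for naming genes.

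**Figure D5:**
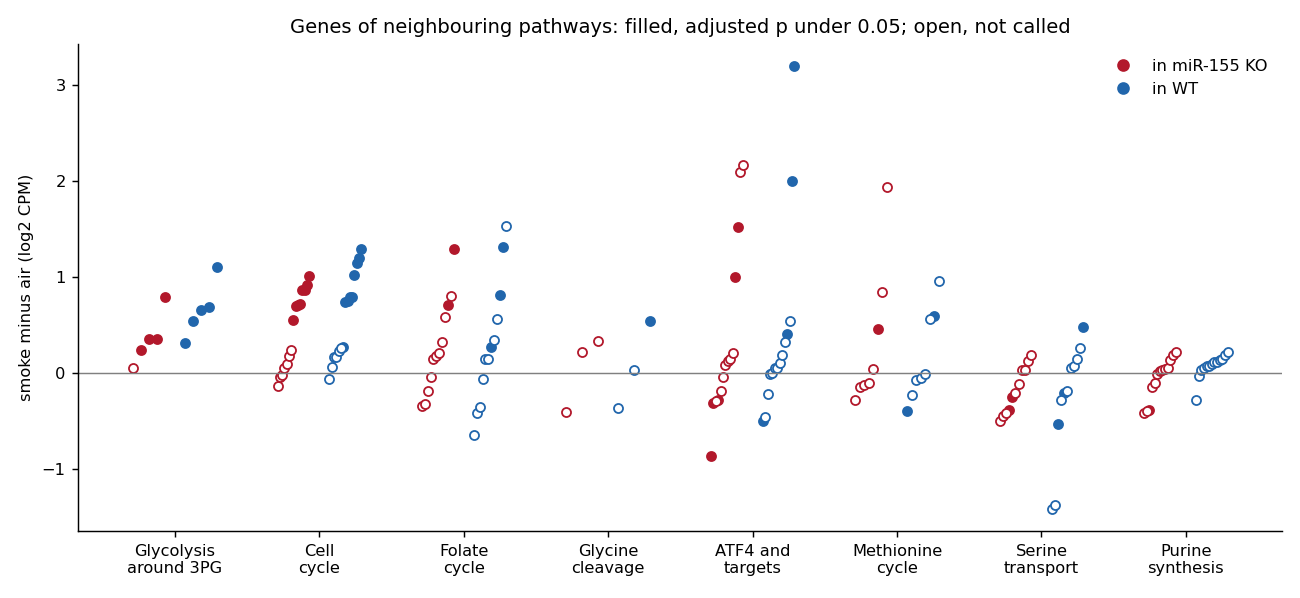
Smoke minus air differences in log2 CPM for the 81 measured genes of the 8 neighbouring lists, in miR-155 KO mice (left of each pair) and in WT mice (right), with filled points called at an adjusted p under 0.05. Called points are frequent among glycolysis and cell cycle genes and scarce among purine synthesis genes, with 1 of 13 in KO mice and 0 of 13 in WT mice.

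Folate genes were called higher in 2 of 12 cases in KO mice and in 3 of 12 in WT mice, with 0 lower. Aldh1l1, which oxidises formyl-tetrahydrofolate, rose by 1.29 ± 0.34 in KO mice (adjusted p 0.00886) and by 1.31 ± 0.34 in WT mice (0.00556). Tyms, thymidylate synthase, rose by 0.71 in KO mice (adjusted p 0.0276, lost without any of 4 libraries). The folate hydrolase gene Ggh rose by 0.27 in WT mice (adjusted p 0.0213, lost without Ia3 or Ia4). In glycine cleavage, Gcsh was the only called gene of 3, at 0.55 in WT mice, and with quantile normalization Dld was called in KO mice at 0.28 (adjusted p 0.0489). In purine synthesis, which consumes the carbon units, Impdh2 at -0.39 in KO mice was the only call within a genotype, and it was lost without IVa5 and without IIIb2, IIIb3 and IIIb4 (adjusted p 0.207). Other scalings added calls in the opposite direction: Hprt, which salvages purines, was called higher in KO mice with quantile normalization (0.26, adjusted p 0.0159) and with median centring (0.22, 0.0470), and in the average over genotypes 4 of 13 were called higher with quantile normalization, against 0 of 13 with the deposited scaling.

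Some genes of serine transport and use were called lower with smoke. Slc38a2, a carrier of neutral amino acids, fell by 0.39 log2 in KO mice and by 0.53 in WT mice, and Sptlc2, a subunit of the serine palmitoyltransferase that starts sphingolipid synthesis, fell by 0.25 and 0.20. Sfxn1, the mitochondrial serine carrier, rose by 0.48 in WT mice (adjusted p 0.00165). Of the 11 measured genes of that list, 0 were higher and 2 lower in KO mice, and 1 was higher and 2 lower in WT mice. Over all genes, 15.5% were called in KO mice and 22.4% in WT mice. Slc1a5 was called higher in WT mice with quantile normalization (0.33, adjusted p 0.019) and without IIIb2, IIIb3 and IIIb4 (0.26, 0.03). Quantile normalization made the WT count 2 higher and 1 lower. In the average over genotypes it gave 3 higher, among them Slc38a1 (0.17, adjusted p 0.00738), and 3 lower. Slc1a5 and Slc38a1 are named beyond the naming rule. The Sptlc2 call in WT mice was lost without Ib1 or IIb3 and with quantile normalization (adjusted p 0.108), and that in KO mice without IIIb2, IIIb3 and IIIb4 (0.107). On the methionine cycle list, the Ahcy-like gene Ahcyl1 rose by 0.46 in KO mice and by 0.59 in WT mice. Ahcy itself was not called in KO mice (1.93, adjusted p 0.0749) or in WT mice (0.56, 0.657). Mat2b fell by 0.40 in WT mice (adjusted p 0.0143, lost without Ia4 or Ib1). In the average over genotypes Mat2a at -0.25 and Sptlc1 at -0.20 were called too, and these calls were lost in 7 and 11 of the fits that left out a library. Without IIIb2, IIIb3 and IIIb4 the Ahcyl1 call in KO mice was lost (adjusted p 0.0617). In that fit Ahcy was called higher in the average over genotypes (0.64, adjusted p 0.0232).

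ATF4 and its targets outside the 8 enzymes showed no single direction. In KO mice 2 of 14 were called higher, Trib3 at 1.52 ± 0.31 and the asparagine synthetase gene Asns at 1.002 ± 0.262, and 3 lower, Myc at -0.87, Cebpb at -0.31 and Atf4 at -0.28. Cebpb is named here beyond the rule for naming genes, after its value was seen. In WT mice 3 were called higher, Trib3 at 1.998 ± 0.312, Aldh18a1 at 0.41 ± 0.09 and Ddit4, and 1 lower, Slc7a11 at -0.50, a call lost in 6 of the fits that left out a library and with quantile normalization (adjusted p 0.0614). Atf4 itself was at 0.10 in WT mice (adjusted p 0.348). In KO smoke, against WT smoke, Atf4 was lower by a log2 difference of -0.31 (adjusted p 0.0234) and Slc3a2 by -0.41 (0.0142), with the Atf4 call lost without any of 4 libraries and that of Slc3a2 without IIb1 or IVb2. In KO air, against WT air, Slc7a11 was at -0.81 (adjusted p 0.0256), a call lost in 6 such fits and without IIIb2, IIIb3 and IIIb4 (0.508). The Asns call in KO mice was lost in that fit too (0.334), as was that of Cebpb (0.190). Chac1, scarce at a mean log2 CPM of -0.46, gained a call as higher in that fit. Its adjusted p was 0.0141 in KO mice and 0.0129 in the average over genotypes, against 0.0704 and 0.104 with all libraries. Chac1 is also named beyond the rule for naming genes. Ddit4 was nearly unread, with 37, 9, 3, 7 and 6 reads in WT smoke, against 3, 0, 0, 0 and 1 in WT air. Its fitted difference depends on the constant added to the reads and is not given, and its call was lost without IIa1 (adjusted p 0.0671).

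Some markers of other cells differed with smoke beside these genes. The 7 genes listed for monocytes and interstitial macrophages summed to 9.27 to 29.5 CPM in KO smoke, 8.62 to 15.7 CPM in KO air, 19.2 to 165 CPM in WT smoke and 8.50 to 15.4 CPM in WT air. Of them C1qa was at 0 in WT air and averaged 17.7 CPM in WT smoke. Ccr2 was called lower in KO mice, and C1qa, C1qb and C1qc were called higher in WT mice. The 5 measured of 6 neutrophil genes summed to 139 to 314 CPM in KO smoke, 86.1 to 134 CPM in KO air, 159 to 357 CPM in WT smoke and 90.3 to 129 CPM in WT air, and S100a9 was at 0 in both air groups. In each genotype 3 of these 5 were called higher and 1 lower, where 15.5% of all genes were called in KO mice and 22.4% in WT mice. Mmp8 averaged 158.5 CPM in KO smoke, 29.0 CPM in KO air, 187.8 CPM in WT smoke and 35.5 CPM in WT air. Csf3r went the other way, with 23.3 CPM in KO smoke, 71.05 CPM in KO air, 17.8 CPM in WT smoke and 57.4 CPM in WT air, and log2 differences of -1.59 in KO mice (adjusted p 5.22e-10) and -1.69 in WT mice (9.97e-11). Of the 3 eosinophil genes only Ear6 was measured, at 87.9 to 124 CPM in KO smoke, 3.77 to 22.5 CPM in KO air, 97.8 to 161 CPM in WT smoke and 13.7 to 23.3 CPM in WT air. The part of these markers in the differences of the 8 enzymes was not tested.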

How the data were processed

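Poly-A RNA of 20 libraries of sorted alveolar macrophages, 5 mice in each of 4 groups, was sequenced from 25 ng of input RNA, per the labels' protocols. The submitters' processing notes name STAR 2.6.0c, limma and build GRCm38.p6. Which tool counted reads, on which annotation, and whether by strand, is not given in the sources used here. Deposited values are log2 CPM, which the authors made with limma's voom formula, with 0.5 added to a gene's count and 1 to the sum of its library. With that formula 100% of values gave back whole reads within a tolerance of 0.001, and CPM were computed from those reads. Of the 13225 genes kept, the scarcest had 14 reads in all, and none was read in fewer than 3 libraries.

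The model was limma 3.58.1 in R 4.3.3 on the deposited log2 CPM of all genes and all 20 libraries, with 1 mean for each group and an empirical Bayes variance that follows the mean level. Within a contrast, 2-sided p-values were adjusted over all genes (Benjamini-Hochberg). The fitting code was tested on simulated data. Mouse codes occur once each, so no pairing was used. Gene positions, lengths and copies came from GENCODE M21 (GRCm38) with blastn 2.17.0, and promoters from RefSeq. Tables and figures were made in Python 3.11.15 with matplotlib 3.10.9, numpy 2.4.6, pandas 2.3.3 and scipy 1.17.1.

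The 8 enzymes, the lists and the marker genes were chosen with earlier results of these data known. The text names all 8 enzymes, up to 4 called genes with the smallest p from each list in a contrast, and for each enzyme the 3 genes with the most similar deviations from group means. Of the genes this rule picks, 1 is not reported here by name. The 34 alternatives were other variance priors, low-value filters, added constants, scalings, weights, covariates and subsets of libraries, and a correction for transcript length over the 12633 genes that had one.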

Additional observations from a re-analysis of the deposited data

Results flagged for a closer look

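The level of Mthfd1l in the miR-155 KO air mouse IIIb1 was 0.39 log2 CPM, from 13 reads, while the other 4 libraries of that group lay between 1.77 and 2.30. The gap to the nearest of them was 0.724 of the group's range, above the limit of 0.71 that Dixon's rule sets for 5 values. This was 1 of 32 groups examined (8 enzymes in 4 groups), and chance flags about 1 in 20. Without this mouse the log2 difference of Mthfd1l between KO smoke and KO air was 0.11 and was not called.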

How the results depend on the processing

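Of 1610 recomputed differences of an enzyme, 1552 kept their direction and side of the threshold, 24 lost a call, 11 gained one and 23 changed sign. All 80 within-library differences stayed within their spread, but these were recomputed only with other added constants and scalings. Median centring cannot change a difference within a library, and subsets of libraries were not applied to these. For smoke in miR-155 KO mice, the enzymes called numbered 2 when only the compared groups were fitted, 2 with array weights, 1 without the KO air mice IIIb2, IIIb3 and IIIb4 (all genes: 1220) and 2 to 4 when 1 library was left out. For KO against WT in air, 24 genes were called with only the compared groups, 24 without those 3 libraries and 29 to 182 when 1 was left out (0 to 1 of the enzymes). For KO against WT in smoke, 105 genes were called without a mean trend, 134 with the length trend removed, 334 with only the compared groups, 356 without those 3 libraries, 954 with array weights (1 of the enzymes) and 88 to 374 when 1 was left out. For the difference of the smoke responses, the settings gave 1 (array weights), 2 (robust variance, a minimum mean log2 CPM of 1, or median centring), 3 (no mean trend or quantile normalization), 4 (a minimum of 3, or log2 of CPM plus 1) and 6 genes (log2 of CPM plus 5), and leaving out 1 library gave 0 to 42 (0 to 1 of the enzymes). Values near 0 changed sign. Without those 3 libraries, KO minus WT in air was 0.012 for Phgdh and 0.0871 for Mthfd2, and the difference of responses was -0.143 for Psph. With array weights, KO minus WT in smoke was -0.0104 for Phgdh. The average smoke difference of Shmt1 was 0.00969 with median centring, 0.0353 with the letter of the mouse code as a covariate, 0.0197 with array weights, 0.0197 with voom weights and 0.0697 without those 3 libraries. Leaving out 1 library gave ranges of -0.184 to 0.0341 (Shmt1, WT smoke), -0.0528 to 0.169 (Shmt1, KO smoke), -0.0640 to 0.0519 (Shmt1, average), -0.00468 to 0.107 (Shmt2, KO minus WT in air) and -0.0878 to 0.406 (Mthfd1l, difference of responses). The cause was not tested, except that leaving out libraries lowers their number. No other scaling moved the median of all genes by over 0.1 log2.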
